A study of Mus musculus with 2 samples.

Results

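The 9 genes described here, Tcf7, Lef1, Bcl11b, Satb1, Tcf12, Tcf3, Ikzf1, Ets1 and Gfi1, encode transcription factors of the T lineage, and they were taken by name and matched by gene ID. All 9 were found among 24532 gene IDs, and all 9 belong to the 12029 genes that reached 1 TPM in 1 library or both. TPM is the abundance of a transcript per unit of length, scaled to the same total in each library. RNA was measured in CD69+ double-positive (DP) thymocytes, which carry both CD4 and CD8 and have gained CD69 after a signal through the T cell receptor. The cells were sorted from C57BL/6 mice at 6 weeks of age. There were 2 libraries. The library labelled KO came from NSRP1f/fCD4Cre mice, in which the floxed alleles are combined with Cre under a CD4 promoter that is active from the DP stage, and the library labelled WT came from NSRP1f/f mice, with the same floxed alleles and no Cre named. NSrp70, the protein of Nsrp1, sits in nuclear speckles and is known as a splicing regulator, so both the levels and the exons of the factors are given. The number of mice behind a library is not stated in the labels.

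These factors act at different steps of thymocyte life. TCF-1 (Tcf7) and LEF1 are HMG-box proteins that bind beta-catenin and Groucho corepressors, and BCL11B is a zinc-finger factor that holds cells in the T lineage. SATB1 organises chromatin in thymocytes, and Ikaros (Ikzf1) recruits the NuRD remodelling complex. HEB (Tcf12) and E2A (Tcf3) are E proteins, basic helix-loop-helix factors that bind DNA in pairs and are held back by the Id proteins. ETS1 is the founding ETS-domain factor of lymphocytes, and GFI1 is a repressor that works through LSD1 and CoREST.

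Each genotype had 1 library, so differences could not be set against replicates or tested, and the intervals below are 95% intervals that cover counting error only. Depth on annotated exons came to 5076 megabases of aligned sequence in the library labelled KO and to 4199 in the library labelled WT. Nsrp1 itself stood at 29.6 TPM in the library labelled KO and at 29.7 TPM in the library labelled WT, so its RNA level does not show the deletion that the KO label states, and every direction below is between libraries named by their labels. The sorting markers were abundant in both libraries. Cd4 had 663 TPM in the library labelled KO and 725 TPM in the library labelled WT, Cd8a 1151 and 1138 TPM in the same order, and Cd69 522 and 430 TPM. Xist, an RNA of female cells, had 76.3 TPM in the library labelled KO and 201.8 TPM in the library labelled WT, and the Y-linked Ddx3y had 71.2 and 31.1 TPM in that order. Both RNAs were thus present in both libraries, at different levels. The sex makeup of the libraries and their genotype therefore cannot be told apart. In bulk RNA, fewer cells of a type and less RNA per cell cannot be told apart either. Markers of late single-positive cells differed between the libraries, with Klf2 at 19.3 TPM in the library labelled KO and 41.5 TPM in the library labelled WT, S1pr1 at 3.61 and 8.28 TPM, and Samhd1 at 24.2 and 56.9 TPM. Over that whole list, 3 of 10 markers were higher and 7 lower in the library labelled KO, where 61.5% of all genes were lower. Their summed level was 1526 TPM there and 1433 TPM in the library labelled WT. Most of this sum was Cd52, with 1038 TPM in the library labelled KO and 864 TPM in the library labelled WT. The sum thus mainly follows that gene. The part of these markers in the results was not tested. Of the other marker lists, the 12 of earlier double-negative cells summed to 57.5 TPM in the library labelled KO and 69.3 TPM in the library labelled WT, the 8 of B cells to 68.3 and 58.7 TPM, the 10 of myeloid cells to 72.03 and 88.8 TPM, and the 7 of natural killer and innate lymphoid cells to 106 and 85.9 TPM. The 9 markers of thymic epithelium summed to 16.5 TPM in the library labelled KO and 15.4 TPM in the library labelled WT, with Foxn1, Krt5 and Krt8 at 0 in both. The 6 of red blood cells summed to 3.08 and 1.36 TPM, and the 6 of fibroblasts and endothelium to 105 and 121 TPM, nearly all of it Pecam1, which leukocytes also express.

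All 9 factors had a slightly lower TPM in the library labelled KO, and none differed by much. Their log2 fold changes, the library labelled KO over the library labelled WT, ran from -0.30 for Tcf7 to -0.04 for Ikzf1, with a median of -0.14. Over all 12029 genes the median was -0.07, and the middle 95% of genes lay between -0.74 and 0.60. None of the 9 reached a log2 fold change of 1 in size, against 2.03% of all genes, and none reached 0.5, against 9.78%. All 9 lay below zero, as did 61.5% of all genes. Every counting interval of the 9 ratios lay below 1, but the share of all genes with such an interval was not counted. These genes are deeply covered, with between 2979 and 102750 estimated read pairs in a library. The intervals also leave out the variation between mice. The count depends on the scale. In FPKM, which is scaled by all mapped reads, the median of the 9 was -0.04 with 6 below zero, and Lef1, Satb1 and Ikzf1 lay above zero, while the median of all genes was 0.02. After rescaling to the median ratio, 8 lay below zero and Ikzf1 above it.

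The order of the 9 levels was the same in both libraries. Satb1 was at the top with 1482 TPM in the library labelled KO and 1586 TPM in the library labelled WT, followed by Tcf7, Ets1, Lef1, Ikzf1, Bcl11b, Tcf3, Tcf12 and Gfi1. Satb1 and Tcf7 were next to each other within counting error in the library labelled WT, where their intervals overlapped, and all other neighbours had separate intervals in each library. By rank among the genes measured, Satb1 stood at 90 in the library labelled KO and 76 in the library labelled WT, and Gfi1 stood at 1816 and 1718. Together the 9 genes held 6136 TPM in the library labelled KO and 6875 TPM in the library labelled WT, which is 0.614% and 0.688% of the total.

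**Figure D1:**
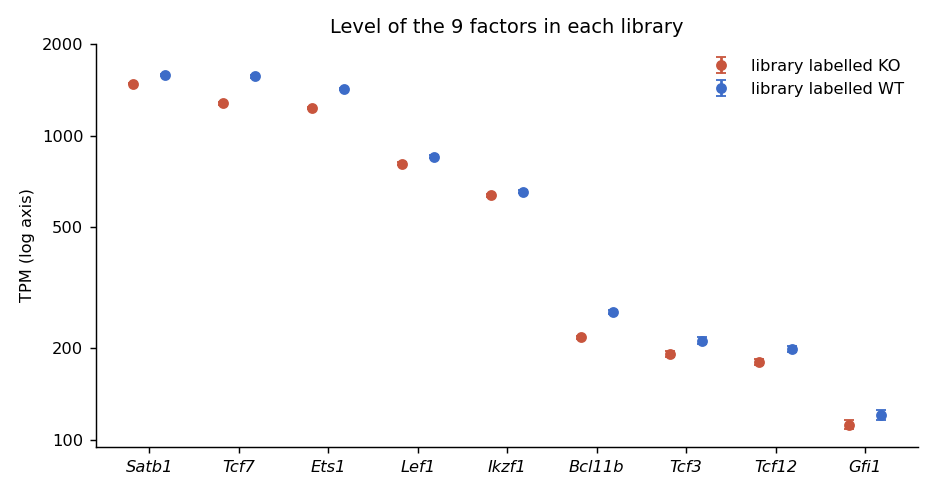
Level of each factor in TPM on a log axis, in the library labelled KO (left of each pair) and the library labelled WT (right of it), with 95% exact Poisson intervals of the estimated read pairs. The order from Satb1 to Gfi1 is the same in both libraries, and each factor has its lower point in the library labelled KO.

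The difference between the libraries was not even along these genes. At the 5' end the scaled read depth of the 9 factors was lower in the library labelled KO, and at the 3' end it was close to even. Depth per exon was scaled to TPM-equivalents, the TPM that a transcript with that depth would have. In the first exon of the most abundant transcript, the ratio of the library labelled KO to the library labelled WT ran from 0.649 for Ets1 to 0.798 for Tcf3. In the terminal exon it ran from 0.839 for Bcl11b to 1.09 for Lef1. The terminal exon had the highest ratio of all exons in each of the 9 genes, and it exceeded the first exon's by 1.23 times in Bcl11b to 1.56 times in Satb1. On the log2 scale the terminal exon lay above the other exons in 9 of 9 factors, against 85.9% of the 6764 genes where both parts hold 100 read pairs or more. The median gap was 0.33 in the factors and 0.19 in those genes, whose quartiles were 0.07 and 0.31. Between last and first exon, the median gap was 0.46 in the factors and 0.27 in all genes, of which 81.5% had a gap above zero. The slope is thus shared by most genes of these libraries.

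Leaving out the terminal exon changed the size of the difference and kept its direction. Without it the 9 log2 fold changes ran from -0.53 for Bcl11b to -0.22 for Tcf3, with a median of -0.31. All 9 were below zero, as were 67.9% of the 11260 genes that have other exons, and the median of those genes was -0.14. The terminal exons alone had a median of -0.04 in the factors, with 4 above and 5 below zero. Long terminal exons weigh on the whole-gene values. They make up 7012 of the 7707 bases of the main Bcl11b transcript and 4046 of the 5120 bases of that of Ikzf1. What makes the slope was not tested.

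**Figure D2:**
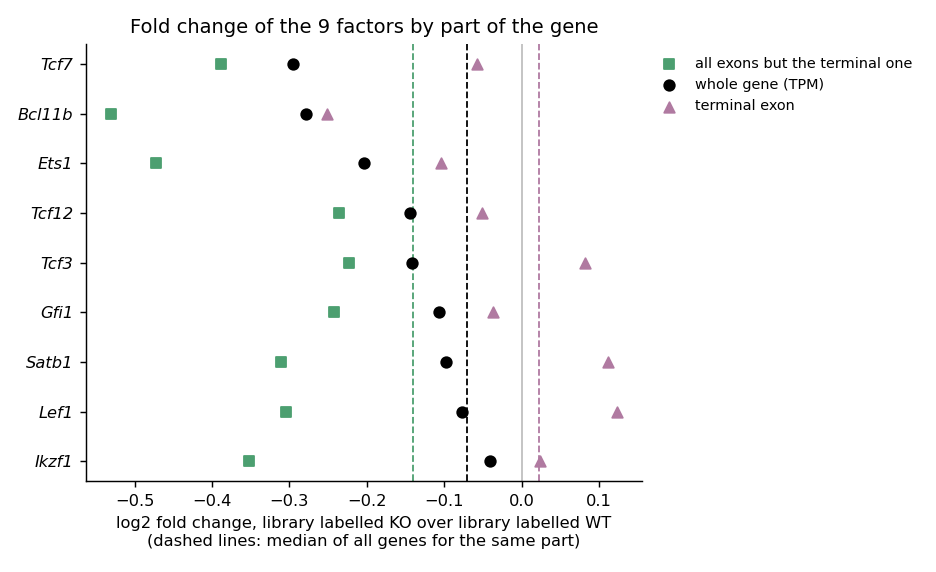
Log2 fold change, library labelled KO over library labelled WT, of each factor for the whole gene (circles), for all exons but the terminal one (squares) and for the terminal exon (triangles), with the median of all genes for the same part as a dashed line. The squares lie left of the circles in all 9 factors, between -0.53 and -0.22, and 4 of the 9 triangles lie above zero.

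**Figure D3:**
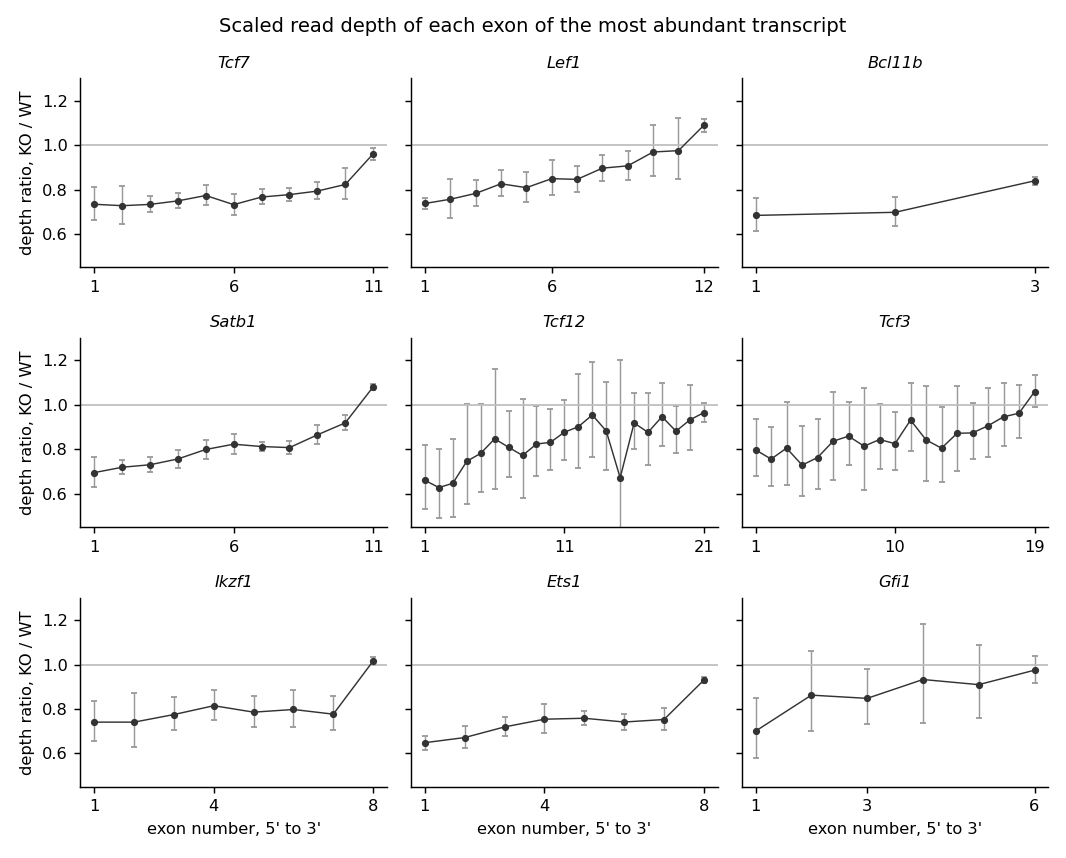
Ratio of scaled depth, library labelled KO over library labelled WT, for each exon of the most abundant transcript, from the first exon on the left to the last on the right, with 95% counting intervals. In each panel the last exon has the highest ratio, from 0.839 in Bcl11b to 1.09 in Lef1.

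Tcf7 (gene ID 21414, mm10 chromosome 11, 52252283 to 52283014, minus strand) encodes TCF-1, which sets up the T lineage programme and keeps DP cells alive. It had 1276 TPM in the library labelled KO (1263 to 1289) and 1567 TPM in the library labelled WT (1551 to 1583). The ratio was 0.814 (0.803 to 0.826) and the log2 fold change -0.30, the lowest of the 9 factors, with 18.6% of all genes below it. Its first exon had 793 TPM-equivalents in the library labelled KO and 1081 in the library labelled WT, and its terminal exon had 597 and 621. The terminal exon was thus nearly even between the libraries, and the gap lay in the exons before it. The StringTie values give NM_009331, which starts at an inner first exon, 529 TPM or 41.4% of the gene in the library labelled KO and 598 TPM or 38.1% in the library labelled WT. The 42 bases that this transcript alone covers had only 36.4 TPM-equivalents in the library labelled KO and 44.97 in the library labelled WT, which is 4.395% (2.60 to 6.89) and 3.996% (2.33 to 6.34) of the depth of both first exons. The next exon, shared by both transcripts, had 2198 TPM-equivalents in the library labelled KO and 2998 in the library labelled WT. Both first exons lay far below it, so their depth is no full measure of start use. The other transcript, NM_001313981, had 58.6% of the listed TPM in the library labelled KO and 61.9% in the library labelled WT.

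Lef1 (gene ID 16842, chromosome 3, 131110297 to 131224357, plus strand) encodes the relative of TCF-1 that acts with it at the DP stage. It had 808 TPM in the library labelled KO (800 to 817) and 853 TPM in the library labelled WT (843 to 863), a ratio of 0.948 (0.933 to 0.964). From 5' to 3' the ratio climbed with small dips, with 394 TPM-equivalents in the first exon in the library labelled KO and 535 in the library labelled WT, and 929 and 853 in the terminal exon. By listed TPM its main transcript NM_010703 held 78.8% of the gene in the library labelled KO and 90.9% in the library labelled WT, and NM_001276403, which starts at an inner first exon, held 12.7% and 1.66%. That is 103 TPM in the library labelled KO and 14.1 TPM in the library labelled WT for the inner start. The read depth of the inner first exon showed no gap of that size, and its value was slightly lower in the library labelled KO. Its 30 bases had 96.9 TPM-equivalents in the library labelled KO and 104 in the library labelled WT, a ratio of 0.931 (0.542 to 1.61) from 32.4 and 27.0 read pairs, while the outer first exon had a ratio of 0.737. The inner start thus made up 19.7% (14.4 to 25.7) of the depth of both first exons in the library labelled KO and 16.3% (11.4 to 22.1) in the library labelled WT, which is the direction of the listed shares, with overlapping intervals. The next exon, shared by both starts, had 785 TPM-equivalents in the library labelled KO and 1038 in the library labelled WT. Both first exons lay below it, so here too their depth is no full measure of start use. Another transcript, NM_001276402, lacks internal exons of 84 and 41 bases and had 8.47% in the library labelled KO and 7.41% in the library labelled WT.

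The 84-base exon of Lef1 lies in the part of the protein known to shape its activity with partner proteins, and its inclusion in T cells is known to be regulated. It is shown because its use is the best measured internal exon choice of Lef1. It spans chr3:131191023-131191106 on the plus strand of GRCm38 and keeps the reading frame, with 28 codons. The exon is in capitals and the 12 coding bases on either side, from the neighbouring exons, are in lower case.
Lef1 exon of 84 bases: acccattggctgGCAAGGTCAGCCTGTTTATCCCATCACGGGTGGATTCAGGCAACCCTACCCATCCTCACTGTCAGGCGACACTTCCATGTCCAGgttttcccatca
Its depth was 87.1% (80.9 to 93.8) of that of its neighbours in the library labelled KO and 85.2% (78.9 to 92.0) in the library labelled WT. The 41-base exon stood at 86.4% (76.4 to 97.7) of the exon before it in the library labelled KO and at 85.8% (74.8 to 98.5) in the library labelled WT. Both exons were thus in most Lef1 transcripts, at shares whose counting intervals overlap between the libraries.

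Around the HMG-box pair, the other members of the family were scarce. Tcf7l1 had 1.70 TPM in the library labelled KO and 3.12 TPM in the library labelled WT, and Tcf7l2 had 1.25 and 1.66 TPM. Of 12 beta-catenin and Groucho partners, 11 were measured, with 2 higher and 9 lower in the library labelled KO. Over all genes, 61.5% were lower. The median log2 fold change of these partners was -0.27. Bcl9l, a beta-catenin co-activator, had 14.0 TPM in the library labelled KO and 21.5 TPM in the library labelled WT, and Tle4, a Groucho corepressor, had 22.1 and 34.6 TPM. The log2 fold change of Tle4 was -0.62 for the whole gene and -0.14 without the terminal exon. The median of all genes without it was also -0.14. Tle6, another Groucho relative, had 7.17 and 6.93 TPM. Tle5, a short relative that lacks the C-terminal repeats of Groucho proteins, had 986 TPM in the library labelled KO and 492 TPM in the library labelled WT, a log2 fold change of 1.00. That was the only partner past 1 in size, and without the terminal exon its value was 0.12.

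Bcl11b (gene ID 58208, chromosome 12, 107910403 to 108003414, minus strand) is needed for T lineage commitment and for DP cells. It had 217 TPM in the library labelled KO (214 to 220) and 263 TPM in the library labelled WT (260 to 267), a ratio of 0.823 (0.807 to 0.840) and a log2 fold change of -0.28. Its first exon had 177 TPM-equivalents in the library labelled KO and 259 in the library labelled WT, and its terminal exon had 219 and 261. Bcl11b was the factor with the lowest ratio in the terminal exon as well as the lowest value without it, so its level was lower in the library labelled KO along the whole gene. The transcript NM_021399 held 58.5% of the listed TPM in the library labelled KO and 62.4% in the library labelled WT, and NM_001079883, which adds an exon of 216 bases, held 38.8% and 35.0%.

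The added exon is shown because it is the one difference between the main Bcl11b forms. It spans chr12:107965672-107965887 on the minus strand of GRCm38, has 72 codons with no stop, and 64.8% of its bases are G or C. Capitals mark the exon, and lower case the 12 bases of the neighbouring exons.
Bcl11b exon of 216 bases: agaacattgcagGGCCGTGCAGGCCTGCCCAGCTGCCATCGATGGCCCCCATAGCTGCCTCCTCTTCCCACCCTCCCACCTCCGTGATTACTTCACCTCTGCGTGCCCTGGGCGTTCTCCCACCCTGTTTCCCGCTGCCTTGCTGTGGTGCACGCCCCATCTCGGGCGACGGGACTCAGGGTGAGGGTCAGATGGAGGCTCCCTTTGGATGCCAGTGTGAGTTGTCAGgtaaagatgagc
Its depth was 89.2 TPM-equivalents in the library labelled KO and 117 in the library labelled WT. Set against the exon before it, that is 43.5% (37.3 to 50.6) in the library labelled KO and 39.8% (34.2 to 46.1) in the library labelled WT. These intervals overlap, and in both libraries the interval held the share that StringTie lists for the longer form. The relative Bcl11a had 0.626 TPM in the library labelled KO and 0.712 TPM in the library labelled WT, under the filter.

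Ikzf1 (gene ID 22778, chromosome 11, 11685925 to 11772926, plus strand) encodes Ikaros. It had 636 TPM in the library labelled KO (630 to 642) and 654 TPM in the library labelled WT (647 to 662), a ratio of 0.972 (0.957 to 0.987), the closest to 1 of the 9 factors. The near-even level was that of the terminal exon, with 682 TPM-equivalents in the library labelled KO and 671 in the library labelled WT. The first exon of its main transcript had 224 in the library labelled KO and 302 in the library labelled WT, and the log2 fold change without the terminal exon was -0.35. Its listed transcripts had the largest gain in share among the 9 genes. NM_001301863 held 275 TPM or 43.3% in the library labelled KO and 204 TPM or 31.2% in the library labelled WT. NM_001025597, which starts at the upstream first exon, held 127 TPM or 20.02% in the library labelled KO and 198 TPM or 30.2% in the library labelled WT. The other 4 transcripts moved by less than 1 percentage point each. The first exons themselves differed less: the upstream one had 26.5% (24.2 to 29.0) of the depth of both in the library labelled KO and 30.2% (27.8 to 32.7) in the library labelled WT, and these intervals overlap.

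Ikaros forms differ in their DNA-binding zinc fingers, which are encoded by internal exons that can be left out. The 261-base exon shown here encodes the first of these fingers, and the form known as Ik-2 lacks it. It spans chr11:11748311-11748571 on the plus strand of GRCm38 and has 87 codons, in which 1 match to the spacing of a C2H2 zinc finger was found. Capitals mark the exon, and lower case the 12 bases of its neighbours.
Ikzf1 exon of 261 bases: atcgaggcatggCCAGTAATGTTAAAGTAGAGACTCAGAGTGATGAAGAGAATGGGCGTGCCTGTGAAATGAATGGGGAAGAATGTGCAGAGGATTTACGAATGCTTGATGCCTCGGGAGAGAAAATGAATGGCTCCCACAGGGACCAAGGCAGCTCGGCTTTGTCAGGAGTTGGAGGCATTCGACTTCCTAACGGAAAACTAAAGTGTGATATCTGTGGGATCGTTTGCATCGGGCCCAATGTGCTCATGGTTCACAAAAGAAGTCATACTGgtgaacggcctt
Its depth was 66.6% (61.8 to 71.8) of that of its neighbours in the library labelled KO and 63.9% (59.2 to 68.9) in the library labelled WT. The next alternative exon, of 123 bases, stood at 102% (93.5 to 111) of its neighbours in the library labelled KO and at 99.9% (91.6 to 109) in the library labelled WT. Transcripts with and without the first finger were thus both present, and the intervals of the libraries overlap for each of these exons.

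The Ikaros relatives also had lower values in the library labelled KO. Ikzf3, which encodes Aiolos, had 224 TPM in the library labelled KO and 323 TPM in the library labelled WT, a log2 fold change of -0.52 and -0.73 without the terminal exon. Ikzf2 (Helios) had 111 and 136 TPM, Ikzf4 (Eos) 2.46 and 5.04 TPM, and Ikzf5 (Pegasus) 34.1 and 36.2 TPM. Over the 8 measured relatives of the 9 factors, of 11 listed, the median was -0.26 with 0 higher and 8 lower, where 61.5% of all genes were lower. Without the terminal exon that median was -0.65. The NuRD complex, the partner of Ikaros, was measured in all 13 genes, with 5 higher and 8 lower and a median of -0.13. The remodelling ATPase Chd3 had 120 TPM in the library labelled KO and 185 TPM in the library labelled WT, and Gatad2b, a bridging subunit, had 55.7 and 96.7 TPM. The histone-binding subunits lay on the other side, with Rbbp7 at 217 TPM in the library labelled KO and 172 TPM in the library labelled WT and Rbbp4 at 226 and 201 TPM.

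Satb1 (gene ID 20230, chromosome 17, 51736187 to 51833290, minus strand) was the most abundant of the factors. It had 1482 TPM in the library labelled KO (1473 to 1491) and 1586 TPM in the library labelled WT (1575 to 1596), a ratio of 0.934 (0.926 to 0.943). The gene had the steepest slope of the 9, with 399 TPM-equivalents in its first exon in the library labelled KO and 575 in the library labelled WT, and 1185 and 1096 in its terminal exon. Its 4 transcripts differ only in their first exon. NM_009122 held 76.5% of the listed TPM in the library labelled KO and 71.2% in the library labelled WT, NM_001163631 held 15.9% and 17.9%, and NM_001163630 held 6.65% and 8.64%. By depth, the first exon of NM_009122 made up 62.4% (59.7 to 65.0) of the 4 first exons in the library labelled KO and 61.9% (59.4 to 64.4) in the library labelled WT, with overlapping intervals.

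Tcf12 (gene ID 21406, chromosome 9, 71844252 to 72111819, minus strand) encodes HEB. It had 180 TPM in the library labelled KO (176 to 184) and 199 TPM in the library labelled WT (195 to 203), a ratio of 0.905 (0.878 to 0.932). Its first exon had 59.2 TPM-equivalents in the library labelled KO and 89.7 in the library labelled WT, and its terminal exon 186 and 193. The authors' tables place a very short RNA, listed under 1 TPM, within its span, where the RefSeq table gives that gene ID another chromosome; no other gene of the tables overlapped any of the 9. By listed TPM, NM_011544 held 80.9% of the gene in the library labelled KO and 80.7% in the library labelled WT, and NM_001253862 held 15.6% and 15.7%. NM_011544 contains a 72-base exon that NM_001253862 lacks, and it adds 24 codons to HEB.

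This exon is shown because its depth and the listed shares point to different main forms of HEB. It spans chr9:71868999-71869070 on the minus strand of GRCm38. Capitals mark it, and lower case the 12 bases of its neighbours.
Tcf12 exon of 72 bases: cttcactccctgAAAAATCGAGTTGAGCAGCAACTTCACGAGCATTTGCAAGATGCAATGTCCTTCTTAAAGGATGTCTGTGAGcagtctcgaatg
The exon had 30.0 TPM-equivalents in the library labelled KO and 44.6 in the library labelled WT, from 24.0 and 27.8 read pairs. That is 14.6% (9.28 to 21.9) of the depth of its neighbours in the library labelled KO and 19.7% (13.0 to 28.9) in the library labelled WT. By depth, then, most HEB transcripts of both libraries lack the exon that the listed main transcript carries. Transcripts that start at an inner first exon, NM_001253863 and NM_001253864, were listed in the library labelled KO at 1.86 and 2.19 TPM, and in the library labelled WT at 0.030 and 0 TPM. They lie outside the rule for named transcripts and were chosen after their values were seen. Their shared first exon held fewer than 3 read pairs in each library, under a floor of 1.61 TPM-equivalents in the library labelled KO and 2.08 in the library labelled WT, so that use of this start was not detectable at this depth.

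Tcf3 (gene ID 21423, chromosome 10, 80409165 to 80433653, minus strand) encodes E2A. It had 192 TPM in the library labelled KO (187 to 196) and 211 TPM in the library labelled WT (206 to 217), a ratio of 0.906 (0.875 to 0.938), nearly that of its partner Tcf12. Its first exon had 85.1 TPM-equivalents in the library labelled KO and 107 in the library labelled WT, and its terminal exon 164 and 155. The gene makes the proteins E12 and E47 by using either of 2 neighbouring exons that both encode a basic helix-loop-helix domain. The E12 exon spans chr10:80412827-80413062 and the E47 exon chr10:80410398-80410624, both on the minus strand of GRCm38. Both are shown so that the copies can be compared, with the bases that differ between them in capitals. The E12 exon has 9 bases more at its 5' end, which are left in lower case.
Tcf3 E12 exon: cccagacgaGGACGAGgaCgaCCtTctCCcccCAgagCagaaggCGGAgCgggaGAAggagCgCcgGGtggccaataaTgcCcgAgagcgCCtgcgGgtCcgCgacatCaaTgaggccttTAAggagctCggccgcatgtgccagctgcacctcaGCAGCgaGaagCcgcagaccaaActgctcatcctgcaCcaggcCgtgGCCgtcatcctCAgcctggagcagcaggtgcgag
Tcf3 E47 exon: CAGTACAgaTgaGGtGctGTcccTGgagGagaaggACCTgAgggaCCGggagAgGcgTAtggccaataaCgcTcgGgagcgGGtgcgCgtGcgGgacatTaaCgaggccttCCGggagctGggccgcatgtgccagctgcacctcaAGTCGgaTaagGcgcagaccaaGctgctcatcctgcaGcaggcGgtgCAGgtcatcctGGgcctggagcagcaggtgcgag
Over the 227 compared bases, 170 or 74.9% are identical.

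E47 was the more used exon in both libraries. The E12 exon had 79.2 TPM-equivalents in the library labelled KO and 92.4 in the library labelled WT, and the E47 exon had 238 and 247. E12 thus made up 24.98% (22.1 to 28.1) of the pair in the library labelled KO and 27.2% (23.9 to 30.7) in the library labelled WT, with overlapping intervals. The 8 listed transcripts of Tcf3 hold between 9.09% and 17.1% of the gene, and the largest shift in share was -1.71 percentage points, that of NM_001164153, with 15.4% in the library labelled KO and 17.1% in the library labelled WT. The remaining E protein, Tcf4, was low, with 7.45 TPM in the library labelled KO and 8.71 TPM in the library labelled WT.

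Of the Id proteins that hold E proteins off DNA, 3 were measured, of which 2 were higher in the library labelled KO and 1 lower, with a median of 0.18. Id3, which T cell receptor signals induce, was the most abundant, with 505 TPM in the library labelled KO and 561 TPM in the library labelled WT. Id2 had 141 TPM in the library labelled KO and 123 TPM in the library labelled WT, and Id1 had 7.89 and 6.86 TPM, the last with a ratio interval of 0.81 to 1.65. Among 11 genes linked to E proteins, 5 were higher and 6 lower, with a median of -0.05. Of all genes, 61.5% were lower and the median was -0.07. The recombinase gene Rag2 had 44.3 TPM in the library labelled KO and 35.5 TPM in the library labelled WT, and Bcl2l1, a survival gene, had 123 and 103 TPM. Notch1 had 39.1 and 53.1 TPM, and the largest gap was that of Notch3, a receptor of earlier thymocytes, with 5.13 TPM in the library labelled KO and 13.3 TPM in the library labelled WT. Its log2 fold change was -1.22, and its ratio interval was 0.34 to 0.43. Without the terminal exon the median of the genes linked to E proteins was -0.28, with 4 higher and 7 lower. Of all genes that have other exons, 67.9% were then lower, and their median was -0.14.

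Ets1 (gene ID 23871, chromosome 9, 32696042 to 32757820, plus strand) had 1233 TPM in the library labelled KO (1224 to 1243) and 1421 TPM in the library labelled WT (1410 to 1432), a ratio of 0.868 (0.859 to 0.877) and a log2 fold change of -0.20. It had the lowest first-exon ratio of the 9, with 642 TPM-equivalents in the library labelled KO and 990 in the library labelled WT, and 1291 and 1388 in the terminal exon. NM_011808 carries an exon of 261 bases that encodes a part of the protein that inhibits DNA binding, and NM_001038642 lacks it. No other transcript covers this exon, and its depth was 82.8% (79.4 to 86.3) of its neighbours in the library labelled KO and 84.5% (81.1 to 88.0) in the library labelled WT. The listed shares of NM_011808 were 87.0% in the library labelled KO and 88.1% in the library labelled WT. The form with the exon thus prevailed in both libraries, and the intervals of the exon's depth overlap.

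Most ETS relatives had values below zero too. Of 12 measured relatives 0 were higher and 12 lower in the library labelled KO, and the median log2 fold change was -0.26, where 61.5% of all genes were lower. After rescaling to the median ratio, 3 were higher and 9 lower. Elk4, a partner of serum response factor, had 79.3 TPM in the library labelled KO and 129 TPM in the library labelled WT, a log2 fold change of -0.70 that was -0.68 without the terminal exon. Its relative Elk1 had 10.6 and 13.8 TPM. Elf2 at 58.3 TPM in both libraries and Gabpa at 62.5 TPM in the library labelled KO and 63.7 TPM in the library labelled WT lay closest to even. Ets2 had 191 TPM in the library labelled KO and 205 TPM in the library labelled WT.

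Gfi1 (gene ID 14581, chromosome 5, 107716655 to 107725805, minus strand) was the least abundant factor. It had 112 TPM in the library labelled KO (108 to 116) and 121 TPM in the library labelled WT (116 to 125), a ratio of 0.928 (0.883 to 0.974). Its first exon had 30.0 TPM-equivalents in the library labelled KO and 42.8 in the library labelled WT, and its terminal exon had 163 and 167. NM_010278 held 89.3% of the listed TPM in the library labelled KO and 95.8% in the library labelled WT, and NM_001267621, with another start, held 10.7% and 4.24%, or 11.998 TPM in the library labelled KO and 5.12 TPM in the library labelled WT. The bases of the second start alone had 4.02 TPM-equivalents in the library labelled KO and 6.18 in the library labelled WT, a ratio of 0.650 (0.264 to 1.57) that spans 1, and the first exon of NM_010278 had a ratio of 0.701. The LSD1 and CoREST partners of GFI1 were all measured, with 0 higher and 6 lower in the library labelled KO, and the median was -0.16. Over all genes, 61.5% were lower. After rescaling to the median ratio, 1 partner was higher and 5 were lower. Rcor1, which encodes CoREST, had 51.7 TPM in the library labelled KO and 68.8 TPM in the library labelled WT. Rcor3 had 6.96 and 8.80 TPM, and Rcor2 had 16.97 and 17.2 TPM.

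**Figure D4:**
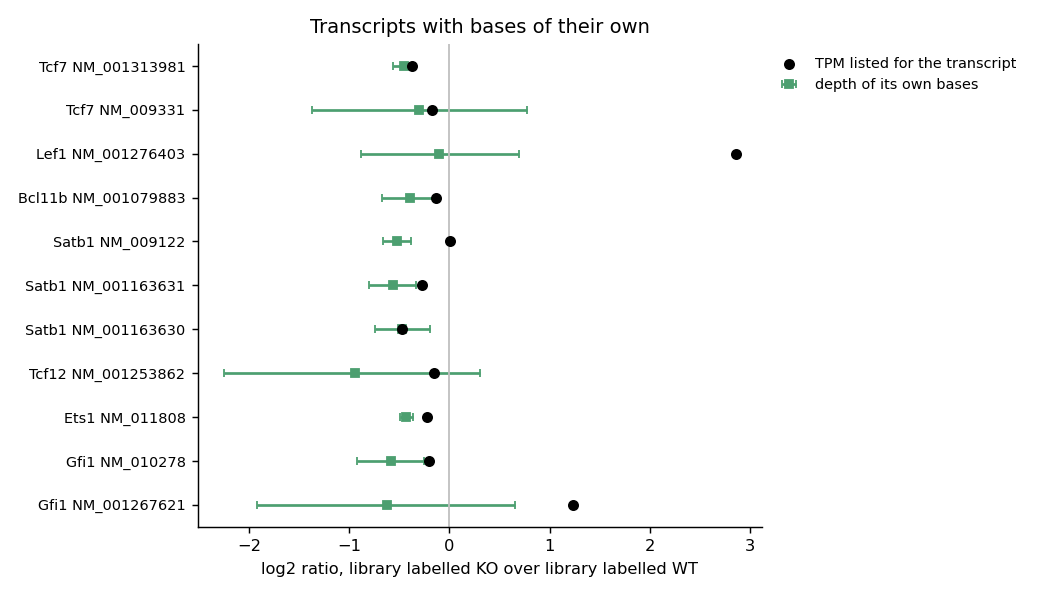
Log2 ratio, library labelled KO over library labelled WT, of the TPM listed for a transcript (circles) and of the depth of the bases that it alone covers (squares, with 95% counting intervals), for transcripts with a share of at least 5% in either library. The circles of Lef1 NM_001276403 and Gfi1 NM_001267621 lie above zero and to the right of their intervals, which are centred on ratios of 0.931 and 0.650.

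Across the 9 genes there are 35 annotated transcripts, 4 of which had listed shares that differed by 10 percentage points or more between the libraries, all in Lef1 and Ikzf1. The same held for 9.25% of 2195 transcripts of genes with several transcripts and at least 100 TPM in both libraries. For all 12 exon choices measured by depth, picked after the transcript values were seen, the counting intervals of the libraries overlapped. The gaps of the exon shares, the library labelled KO minus the library labelled WT, ran from -5.14 percentage points for the 72-base exon of Tcf12 to 3.71 for the 216-base exon of Bcl11b. Some exons were set only against an exon before them or against other first exons, so the slope along the genes enters their shares. In Bcl11b the depth ratio was 0.697 in the exon before, 0.763 in the 216-base exon and 0.839 in the terminal exon. The part of the slope in these gaps was not tested. Overlap of intervals is no test of a difference, and a gap can exceed counting error where they overlap. It does not show that the exons are used alike.

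**Figure D5:**
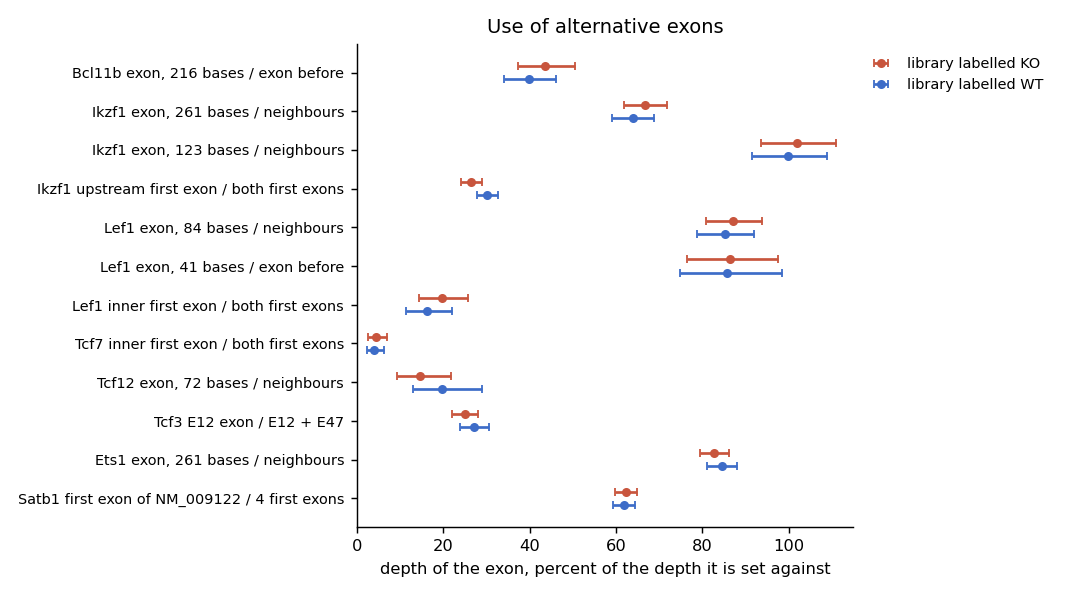
Depth of 12 alternative exons as a percent of the depth of their neighbours or of the first exons they compete with, in the library labelled KO (upper point of each pair) and the library labelled WT (lower point), with 95% counting intervals. The intervals of each pair overlap, among them those of the Tcf12 exon of 72 bases at 14.6% and 19.7%.

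Genes linked by general knowledge to the other factors lay on both sides of zero, and their medians depended on the terminal exon. These lists share genes with each other and hold some of the 9 factors themselves. For TCF-1 and LEF1, 15 genes were measured, 6 higher and 9 lower in the library labelled KO, and the median was -0.05. Ccnd3, a cyclin of proliferating thymocytes, had 790 TPM in the library labelled KO and 647 TPM in the library labelled WT, and Axin2, a feedback target of the beta-catenin pathway, had 20.6 and 24.5 TPM. For SATB1, 6 of 12 were higher and 6 lower, with a median of -0.02. The coreceptor gene Cd8b1 had 1679 TPM in the library labelled KO and 1377 TPM in the library labelled WT, and Runx3, a factor of CD8 lineage cells, had 18.8 and 24.7 TPM. For GFI1 and ETS1, 5 of 13 were higher and 8 lower, with a median of -0.05, and the cytokine receptor gene Il7r had 45.7 TPM in the library labelled KO and 54.3 TPM in the library labelled WT. Without the terminal exon most genes of these lists lay below zero, as did 67.9% of all genes. For TCF-1 and LEF1, 3 were then higher and 12 lower with a median of -0.16. For SATB1, 3 were higher and 8 lower with a median of -0.28, and for GFI1 and ETS1, 3 were higher and 9 lower with a median of -0.25.

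The genes linked to repression by BCL11B or Ikaros were mixed, with 7 higher and 5 lower among 12 measured and a median of 0.16. Of all genes, 61.5% were lower and the median was -0.07. Without the terminal exon, 7 of the list were again higher and 5 lower, with a median of 0.06. Of all genes that have other exons, 67.9% were then lower. Klrd1, a natural killer receptor gene, had 6.88 TPM in the library labelled KO and 3.82 TPM in the library labelled WT, and the Fc receptor chain gene Fcer1g had 17.1 and 11.2 TPM. Dtx1, a Notch target, had 7.81 and 9.78 TPM, and Notch3 was the only gene of the list past a log2 fold change of 1 in size on the TPM + 1 scale. Zbtb16, the factor of innate-like T cells, was near the filter with 0.096 TPM in the library labelled KO and 1.05 TPM in the library labelled WT, a ratio of 0.092 (0.030 to 0.223) and a log2 fold change of -0.90 that was -2.55 with a pseudocount of 0.1 TPM. Natural killer markers summed to 106 TPM in the library labelled KO and 85.9 TPM in the library labelled WT, and their part in these values was not tested.

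Of 50 other transcription factors of thymocytes that were measured, 16 were higher and 34 lower in the library labelled KO, and the median was -0.10. Over all genes, 61.5% were lower and the median was -0.07. Klf2, a factor of cells about to leave the thymus, and Notch3 were the only ones past a log2 fold change of 1 in size. Klf2 had a log2 fold change of -1.07, and of -0.98 without the terminal exon. On the other side E2f1 had 11.8 TPM in the library labelled KO and 7.36 TPM in the library labelled WT, and E2f2 had 105 and 77.1 TPM, both drivers of S phase. Without the terminal exon the median was -0.31 for the 9 factors and -0.32 for this wider group. Of the 12 DP markers 7 were higher and 5 lower in the library labelled KO, and the median was 0.01, or -0.07 without the terminal exon. Aqp11, a DP-stage gene, had 114 TPM in the library labelled KO and 65.2 TPM in the library labelled WT, and Dntt, the polymerase that adds bases at antigen receptor joints, had 760 and 572 TPM.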

How the data were processed

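RNA of sorted CD69+ DP thymocytes was measured in 2 libraries, 1 per genotype, and groups were taken from the labels. Trizol was used to extract total RNA, of which 1 ug went into a TruSeq library, per the labels' protocols. HISAT2 served as aligner and mm10 (GRCm38) as genome, per the submitters' processing notes. Per the file headers, the authors ran StringTie 1.3.3b on annotated RefSeq transcripts. The deposited tables give TPM, FPKM and coverage (mean read depth per base, a signal not scaled to library size) for each gene and transcript, and coverage for each exon. Read filters and strand use are not stated there.

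Depth was taken from coverage, since TPM keeps none. For sparsely covered transcripts, covered bases clustered at multiples of 202 bases, 2 mates of 101 bases: 27.7% of them in the library labelled KO and 27.2% in the library labelled WT were within 2 bases, against 2.48% by chance. Read pairs are covered bases divided by 202. Levels have 95% exact Poisson intervals, ratios and shares have exact binomial (Clopper-Pearson) ones, and the floor was 3 read pairs. Since PCR copies are no independent molecules, these cover counting error alone. Fold changes are log2((TPM + 1) / (TPM + 1)), labelled KO over labelled WT, which understates changes of genes with low levels. The terminal exon is that of the most abundant transcript. Depth of the other exons was summed over all transcripts and divided by the length of that transcript without its terminal exon. A gene is past the fold where the size of its log2 fold change reaches 1, which is no test.

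The members, the other 21 lists, the exon choices and the tests were chosen with earlier results of these data known. Named genes are the 9 factors, Nsrp1, the sorting markers, the 2 highest and 2 lowest of each list with at least 5 TPM in a library, all genes past the fold, and transcripts with a share of at least 5%. A gene that this rule names is not reported here. Other genes that the text names are list members chosen after their values were seen. Exon sequences come from GENCODE M21 transcripts of GRCm38, and gene names from the RefSeq table of GRCm38.p6, which matched 24462 of 24532 IDs. The alternatives were a pseudocount of 0.1 TPM, FPKM, rescaling to the median ratio, a filter of 5 TPM, a fold of 0.5, no terminal exon, shares from covered bases, other inner exons and, added after seeing the data, the depth of a transcript's own bases and of alternative exons. The fold rule was tried on simulated data with counting error as the only noise. Such data leave out the variation between mice and the slope along the genes, so the trial does not bear on them. The tools were matplotlib 3.10.9, scipy 1.17.1, pandas 2.3.3, numpy 2.4.6 and Python 3.11.15.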

Additional observations from a re-analysis of the deposited data

How the results depend on the processing

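The count of 0 factors past a log2 fold change of 1 held under every alternative tried, including a threshold of 0.5, and 9 of 9 stayed below zero with a pseudocount of 0.1 and without the terminal exon. For the 9 factors the median moved by more than the counting error under 3 alternatives, to -0.043 in FPKM (all genes 0.02), to -0.079 after rescaling (all genes -0.01) and to -0.31 without the terminal exon (all genes -0.14). From covered bases in place of TPM, 2 transcripts differed in share by 10 percentage points or more, against 4. In the lists other than the 9 factors, the count of distinct genes past the fold was 5 in the main setting, 8 with a pseudocount of 0.1 TPM and 3 without the terminal exon. By the depth of its own bases, the log2 ratio of Lef1 NM_001276403 was -0.10 in place of 2.78, and that of Gfi1 NM_001267621 was -0.52 in place of 1.09. Apart from that of construction (fewer exons or bases, another scale), the cause was not tested. No paired analysis was possible because each genotype has 1 library. Depth limits the exon choices with few read pairs, such as the Tcf7 inner first exon with 17.1 in the library labelled KO and 16.3 in the library labelled WT, and the Tcf12 exon of 72 bases with 24.0 and 27.8.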
